A study of Mus musculus with 8 samples.

Results

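The genes described here carry glucocorticoid action and read it out in fat: the receptor Nr3c1, the hormone-activating enzyme Hsd11b1, and 8 genes that the hormone is known to induce (Fkbp5, Tsc22d3, Sgk1, Zbtb16, Mt1, Mt2, Klf9 and Errfi1). They were chosen by symbol, and all 10 were found among the 18691 genes of the files and among the 14257 genes that had enough counts to be tested. The tissue was epididymal white fat of 16-week-old C57BL/6J mice, sequenced as polyadenylated RNA, with 4 libraries labelled wild type (WT, replicates 1, 2, 3 and 4) and 4 labelled Mrp4 knockout, Mrp4-/- (Mrp4 KO, replicates 1, 2, 4 and 5). No treatment, sex, hormone level or hour of collection is named in the labels. They do not say how the knockout allele was made or in which cells it acts, nor that the libraries come from different animals. The p-values therefore speak only of the scatter among these 8 libraries, which may be technical.

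Mrp4, whose gene is Abcc4, is a membrane pump that exports cyclic nucleotides, prostaglandins and conjugated steroids. The libraries labelled Mrp4 KO did not have less Abcc4 RNA, at 3.61 ± 0.244 FPKM (fragments per kilobase of transcript, scaled to depth; mean ± SD, n = 4) against 3.52 ± 0.232 in WT (log2 fold change -0.05, edgeR adjusted p = 0.692). Every direction given below is therefore between libraries as labelled. The libraries held 14.1e6 to 14.7e6 expected counts each. Adipoq, the adipocyte hormone that defines this tissue, had 2610 ± 181 FPKM in WT and 2460 ± 133 in Mrp4 KO (adjusted p = 0.325). The summed level of 10 adipocyte markers was 31100 to 35400 FPKM in WT and 25500 to 30200 in Mrp4 KO, with 3 of the 10 (Plin1, Retn and Cfd) lower by edgeR and none at 0. The gap between these sums leans on Cfd, at 9810 ± 2510 FPKM in WT and 3470 ± 1450 in Mrp4 KO. Fabp4 (10600 ± 1510 and 12000 ± 1890 FPKM), Cidec, Lpl and Pparg had higher means in Mrp4 KO. Adipoq, Lipe and Pnpla2 had lower means, and none of these other markers passed. The summed level of 14 liver transcripts was 52.3 to 129 FPKM in WT and 804 to 1520 FPKM in Mrp4 KO; all 14 were higher by edgeR and none was at 0. Macrophage markers summed to 706 to 824 against 867 to 1400 FPKM (5 of 10 higher), and endothelial markers to 304 to 492 against 539 to 578 FPKM (4 of 8 higher). In whole tissue, fewer cells of a type and less RNA per cell cannot be told apart.

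Glucocorticoids enter cells freely, and Hsd11b1 in the endoplasmic reticulum turns the inert keto form back into active hormone. The bound receptor leaves its chaperone complex, moves to the nucleus and binds a palindrome of paired hexamers in DNA, where it switches on genes such as Fkbp5, which in turn lowers the receptor's affinity for the hormone. In fat the hormone is known to shift adipocytes between lipid storage and lipolysis and to promote their differentiation.

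The palindrome was looked for in the promoters of these genes because it is the receptor's own recognition sequence. RefSeq promoter windows on build GRCm38.p6, which is not the authors' mm9, reach from 250 bases before to 50 bases after a start site, and 16 windows matched 8 of the 10 genes. The motif searched was AGAACA, 3 bases of any kind, then TGTTCT, which reads alike on both strands. It was exact in 3 of the 32851 windows of the table (0.00913%), and 606 windows (1.84%) held it with at most 2 mismatches. Of the 6 windows of Sgk1, a kinase gene with several start sites, 1 held the exact palindrome, 189 bases before its start site, and another held it with 2 mismatches, 183 bases before its start site. The windows of Fkbp5, Klf9, Errfi1, Tsc22d3, Hsd11b1, Mt1 and Mt2 had at least 3 mismatches, which says only that the letters are not in these windows. The Sgk1 stretches are at chr10:21993661-21993755 and chr10:21985881-21985975 on the plus strand, within introns of longer Sgk1 transcripts in GENCODE M21, and capitals mark the palindrome with its spacer.
Sgk1, exact: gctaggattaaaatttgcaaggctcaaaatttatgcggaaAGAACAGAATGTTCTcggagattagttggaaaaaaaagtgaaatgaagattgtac
Sgk1, 2 mismatches: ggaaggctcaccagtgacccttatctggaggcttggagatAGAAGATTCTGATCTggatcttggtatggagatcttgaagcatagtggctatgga

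The metallothionein promoters are shown because Mt1 and Mt2 answer to metal as well as to hormone, through the core of the metal response element, TGCACNC or TGCGCNC on either strand. Mt2 held 4 such cores in its window, 3 before and 1 after the start site. Mt1 held 3, with 1 before and 2 after. Of all windows, 25.7% held at least 1 core, 1.97% at least 3 and 0.517% at least 4. The Mt1 window, chr8:94178839-94179138, has its start site inside the RefSeq span of Mt1, chr8:94178883-94180327. The core before that start site therefore also lies inside the span. The Mt2 stretch is the 250 bases before the start site, chr8:94172368-94172617. The Mt1 stretch is the 30 bases around the core before its start site, chr8:94179055-94179084. Both are on the plus strand of GRCm38.p6 with the cores in capitals.
Mt2: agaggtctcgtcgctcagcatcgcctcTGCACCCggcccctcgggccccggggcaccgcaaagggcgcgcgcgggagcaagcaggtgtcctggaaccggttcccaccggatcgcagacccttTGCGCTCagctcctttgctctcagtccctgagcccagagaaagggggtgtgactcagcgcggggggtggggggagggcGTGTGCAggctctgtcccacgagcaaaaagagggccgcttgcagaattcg
Mt1: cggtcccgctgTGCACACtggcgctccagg

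Of the 10 glucocorticoid genes, 1 fell in the libraries labelled Mrp4 KO and none rose. The gene that fell was Errfi1, and 9 did not pass the test (edgeR's quasi-likelihood test, Benjamini-Hochberg adjusted p under 0.05). That is 10% of these genes, against 18.3% of all tested genes, of which 8.05% were lower and 10.2% higher. The FPKM ranges of the groups did not overlap for 1 of the 10, again Errfi1, against 23.5% of tested genes. At an unadjusted p under 0.05 the counts were 3 lower and 0 higher. The share of all genes at that threshold was not counted, so no excess among the 10 can be read from these counts. DESeq2 and limma-voom each called 2 lower and 0 higher. Of all 14257 tested genes, DESeq2 called 3314 (1785 higher, 1529 lower) and limma-voom 2577 (1483 higher, 1094 lower). The median log2 fold change of the 10 was -0.25, and that of all tested genes was 0 to 2 decimals. The count of 1 changed with single libraries. It was 0 without WT replicate 3 or without Mrp4 KO replicate 1, 4 or 5. It was 2 without WT replicate 2 and 3 without Mrp4 KO replicate 2. Calls over all tested genes moved too, from 2606 with all libraries to 1473 without WT replicate 3 and 3683 without WT replicate 2. They were 1474, 1654, 1380 and 1513 without Mrp4 KO replicate 1, 2, 4 and 5. Calls lost when a library was left out, here and below, are therefore not particular to the genes named.

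**Figure D1:**
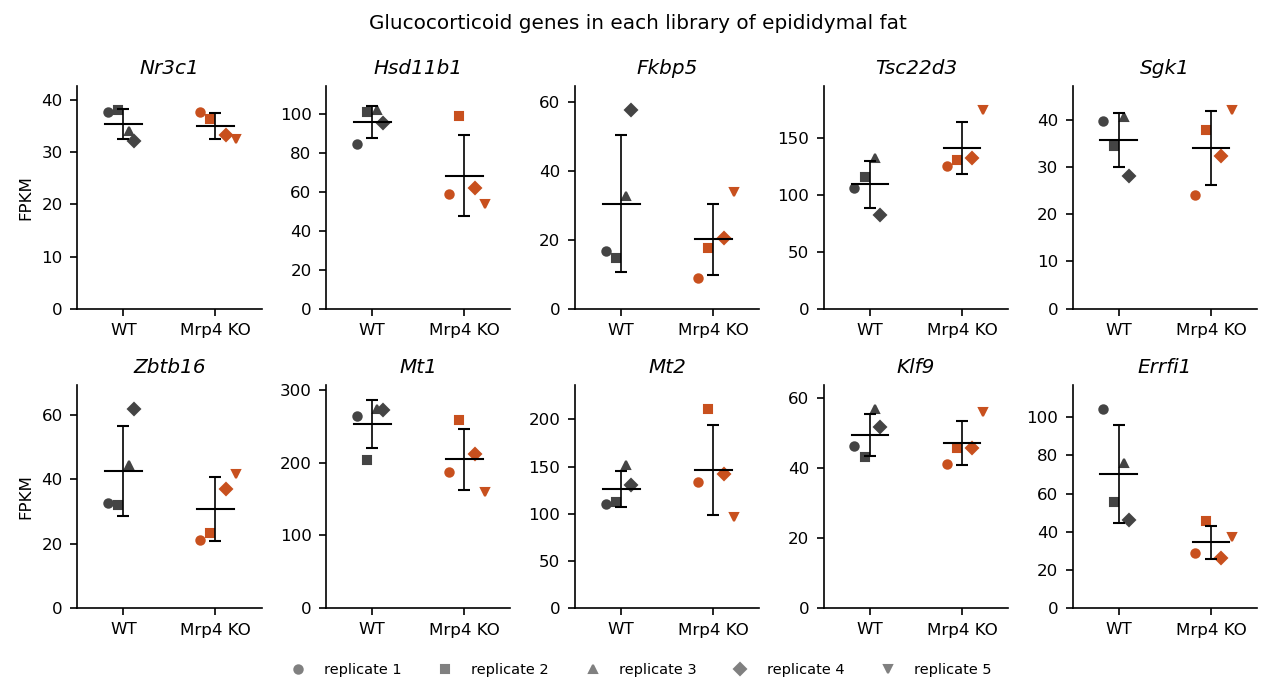
FPKM of each of the 10 genes in every library, with WT in grey and libraries labelled Mrp4 KO in orange; the marker shape gives the replicate, the horizontal line the mean and the bar 1 SD (n = 4). Errfi1 is the only panel in which the groups do not overlap, and Fkbp5 runs from 8.80 to 57.7 FPKM.

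By level per transcript length, averaged over all 8 libraries, Mt1 was first with 229 FPKM, followed by Mt2 with 136, Tsc22d3 with 125, Hsd11b1 with 82.2 and Errfi1 with 52.5. Klf9 had 48.3 FPKM, Zbtb16 36.7, Nr3c1 35.3, Sgk1 34.8 and Fkbp5 25.3. The ranges over libraries of each pair of neighbours in this order overlapped, so the places of Mt2 and Tsc22d3, or of Zbtb16, Nr3c1 and Sgk1, are not separated beyond their spread. Fkbp5, the last in the order, had 6752 expected counts over the 4 WT libraries and 4464 over the 4 Mrp4 KO libraries.

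The receptor gene Nr3c1 was at nearly the same level in all libraries. It had 37.6, 38.1, 34.1 and 32.2 FPKM in WT replicates 1, 2, 3 and 4, and 37.8, 36.3, 33.3 and 32.6 FPKM in Mrp4 KO replicates 1, 2, 4 and 5. The groups covered the same range. The fold, Mrp4 KO over WT, was 0.942 with a 95% interval of 0.838 to 1.06 (edgeR adjusted p = 0.443), so the interval leaves out a change of the size seen for Errfi1. Nr3c1 also had the smallest spread within groups of the 10 genes, with a pooled SD of 0.1 in log2 CPM (counts scaled to library size), and 78.7% of the 12510 tested genes that averaged 1 FPKM or more spread more widely.

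Hsd11b1 lies at chr1:193221640-193264045 (RefSeq positions on GRCm38.p6, here and below). It had 84.6, 101, 102 and 95.4 FPKM in WT replicates 1 to 4, and 59.0, 99.2, 62.0 and 53.7 FPKM in Mrp4 KO replicates 1, 2, 4 and 5. Of the Mrp4 KO libraries, 3 lay below every WT library and replicate 2 lay among them. The fold was 0.684 (95% interval 0.524 to 0.894) and the log2 fold change -0.55 ± 0.17 (SE), which did not pass with edgeR (adjusted p = 0.054). The call turned on the tool and on that library: adjusted p was 0.0149 with DESeq2, 0.0419 with limma-voom, and 0.00164 with edgeR without Mrp4 KO replicate 2, where the log2 fold change was -0.77. Mrp4 KO replicate 2 was the highest of its group for 4 of the 10 genes (Hsd11b1, Mt1, Mt2 and Errfi1) and the lowest for none. The summed liver transcripts were also highest of the group in that library, at 804, 1520, 1480 and 1140 FPKM in Mrp4 KO replicates 1, 2, 4 and 5, although replicate 4, at almost the same sum, had only 62.0 FPKM of Hsd11b1. The part of liver RNA in the values of Hsd11b1, Mt1 and Mt2 was not tested.

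H6pd, which supplies Hsd11b1 with reducing power, had 158 ± 34.2 FPKM in WT and 172 ± 26.3 in Mrp4 KO (adjusted p = 0.857). Hsd11b2, the enzyme that works the other way and inactivates the hormone, was low throughout. It had 0.34, 0.46, 0.45 and 0.19 FPKM in WT and 0.64, 1.23, 0.71 and 1.05 FPKM in Mrp4 KO. Its groups did not overlap, and it rose (log2 fold change 1.26 ± 0.34, adjusted p = 0.0317), a call lost without any 1 of 5 libraries (WT replicate 1, 3 or 4, Mrp4 KO replicate 2 or 5). Of 17 tested genes for steroid supply and clearance, 7 were higher, 1 was lower and 9 did not pass, with a median log2 fold change of 0.21. Akr1c6, Serpina6, Akr1d1, Cyp3a13 and Hsd11b2 had 14, 6, 11, 14 and 38 expected counts over the 4 WT libraries. They passed the count filter through Mrp4 KO and could hardly come out lower, so the count of 7 is not a test of this list. The higher genes included Akr1c6 (0.188 ± 0.0914 to 6.90 ± 1.94 FPKM), a steroid-reducing enzyme, Cyp3a11 (1.41 ± 0.798 to 27.4 ± 8.74), which hydroxylates steroids, and Serpina6 (0.075 ± 0.0866 to 2.1 ± 0.599), the plasma carrier of the hormone. Akr1d1 (0.07 ± 0.0245 to 0.7 ± 0.0739 FPKM), Cyp3a13 (0.085 ± 0.0311 to 0.91 ± 0.159 FPKM) and Cyb5r3 were the others, the last called in only 1 of the 8 fits that left a library out. Akr1c6, Cyp3a11 and Serpina6 are known for high expression in liver, and they moved with the liver transcripts above (14 of 14 higher); the part of liver RNA in this count was not tested. The lower gene was Por, the electron donor of the microsomal P450 enzymes, at 207 ± 14.1 in WT and 140 ± 8.24 FPKM in Mrp4 KO (log2 fold change -0.63 ± 0.08, adjusted p = 0.00173).

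Of 20 tested genes listed as chaperones, co-chaperones and related factors, 2 were lower, none was higher and 18 did not pass, a share of 10%. Their median log2 fold change was -0.33. Not all of them are known to hold the receptor ready for hormone. At an unadjusted p under 0.05, 9 were lower and 0 higher. The share of all genes at that threshold was not counted, so no excess among the chaperones can be read from these counts. DESeq2 called 5 lower and 0 higher, against 3314 of all 14257 tested genes. Scaling by library size alone left 0 calls, against 2630 of all tested genes. Bag1, which acts on the HSP70 step, fell from 113 ± 6.53 to 94.2 ± 9.89 FPKM (adjusted p = 0.0284). St13, the adaptor between HSP70 and HSP90, had an adjusted p of 0.0494. The call of Bag1 was lost in 5 and that of St13 in 6 of the 8 fits that left out a library. Ptges3, the p23 co-chaperone, had 42.7 ± 5.52 and 34.5 ± 5.38 FPKM and did not pass (adjusted p = 0.0632). Among 20 coregulators of nuclear receptors, 6 were lower and none higher, a share of 30%, with a median of -0.15; scaling by library size alone left 3 lower and 0 higher. Nrip1, a corepressor that shapes fat oxidation in adipocytes, had 39.5, 41.8, 45.9 and 53.9 FPKM in WT and 29.0, 33.0, 30.6 and 29.95 FPKM in Mrp4 KO. Its groups did not overlap, and it fell by 0.63 on the log2 scale (SE 0.10, adjusted p = 0.00506). Ppargc1a, a coactivator that drives mitochondrial biogenesis, had 1.27 ± 0.32 FPKM in WT and 0.655 ± 0.111 in Mrp4 KO (log2 fold change -1.02, adjusted p = 0.0118). These calls held in all fits that left out a library, whereas those of Gmeb1, Hdac3, Smarca4 and Crebbp were each lost in at least 6 of the 8.

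**Figure D2:**
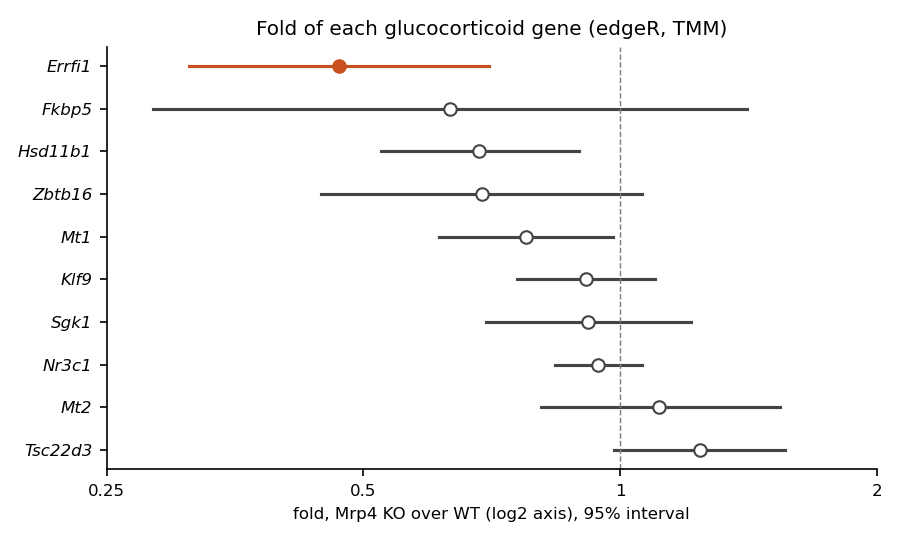
Fold of each of the 10 genes, Mrp4 KO over WT, on a log2 axis with its 95% interval from edgeR; the filled point passed the test. Errfi1 lies at 0.468, and the intervals of Errfi1, Hsd11b1 and Mt1 lie below 1, the last with an upper end of 0.98.

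Fkbp5 (chr17:28398753-28486149), the co-chaperone that feeds back on the receptor and is among its most used reporters, varied more within each group than between them. It had 16.7, 14.7, 32.8 and 57.7 FPKM in WT replicates 1, 2, 3 and 4, and 8.80, 17.6, 20.5 and 33.7 FPKM in Mrp4 KO replicates 1, 2, 4 and 5. The groups overlapped, with 3 of the 4 Mrp4 KO libraries inside the WT range. The highest library was 4.07 times the lowest in WT and 3.94 times in Mrp4 KO. The fold between groups was 0.632 with a 95% interval of 0.283 to 1.41 (adjusted p = 0.388), which spans both a change as large as that of Errfi1 and none. The log2 fold change of -0.66 became -0.14 without WT replicate 4 and -1.04 without Mrp4 KO replicate 5, with no call in either fit. Its pooled SD within groups was 0.88 in log2 CPM, against a median of 0.15 for the 12510 genes that averaged 1 FPKM or more, and 0.823% of those genes spread more widely.

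Zbtb16 (chr9:48651797-48836225), a zinc-finger repressor of the BTB family that the hormone strongly induces, followed the same order of libraries. It had 32.5, 32.0, 44.3 and 61.8 FPKM in WT and 21.1, 23.3, 36.9 and 41.6 FPKM in Mrp4 KO. WT replicate 4 was the highest of its group and Mrp4 KO replicate 5 of the other, as for Fkbp5, and the groups overlapped. The fold was 0.689 (95% interval 0.446 to 1.06, adjusted p = 0.198). Klf9 (chr19:23141226-23168129), a Krüppel-like repressor and early target, moved within a narrow span: 46.4, 43.2, 56.9 and 51.6 FPKM in WT and 41.1, 45.7, 45.8 and 56.2 FPKM in Mrp4 KO. Its groups overlapped and its fold was 0.912 (0.757 to 1.1, adjusted p = 0.458).

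Ranked by log2 CPM, Fkbp5 and Zbtb16 put the libraries in an identical order in both groups (WT 2, 1, 3, 4 and Mrp4 KO 1, 2, 4, 5, from low to high). Of the other 12509 genes at that level, 18 (0.144%) had that order, and 3 of them were among the 156 other members and pathway genes: Zbtb16, Foxo1, the insulin-restrained transcription factor, and Lpin1, a phosphatidate phosphatase of lipid synthesis. Klf9 and Tsc22d3 kept the order in Mrp4 KO. In WT, Klf9 differed in its upper 2 libraries and Tsc22d3 was lowest in replicate 4. Mt1 kept the order in WT, but in Mrp4 KO its order was 5, 1, 4, 2, lowest where Fkbp5 was highest. Over the 8 libraries Pearson's r with Fkbp5 was 0.93 for Zbtb16, the sixth highest of the 12509 genes, and 0.884 for Klf9, at rank 20. For Nr3c1 r was -0.608 and for Tsc22d3 -0.15. The genes most like Fkbp5 were Zfyve20 (r = 0.948), Tle1 (0.944) and Trpc1 (0.941). These values describe 8 libraries of 1 tissue, which share their differences in cell makeup and depth.

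**Figure D3:**
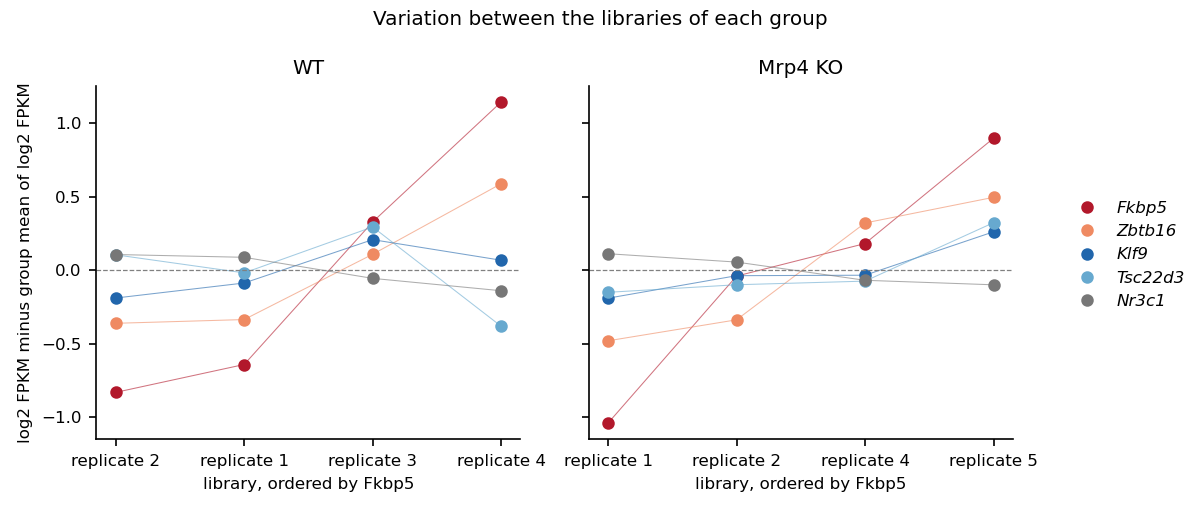
log2 FPKM of 5 genes minus their group mean, for the 4 WT libraries and the 4 libraries labelled Mrp4 KO, placed along each axis by their Fkbp5 level; thin lines only join the points of a gene. Fkbp5 and Zbtb16 climb together in both groups, Klf9 moves less, and Tsc22d3 follows the same order in Mrp4 KO but is lowest in WT replicate 4, where Fkbp5 is highest.

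Tsc22d3 (chrX:140539528-140600522) encodes GILZ, the leucine-zipper protein that carries part of the hormone's anti-inflammatory action. It had 106, 116, 132 and 82.6 FPKM in WT and 126, 130, 133 and 175 FPKM in Mrp4 KO. Only WT replicate 3 reached into the Mrp4 KO range, and Mrp4 KO replicate 5 stood well above the rest. The fold was 1.24 (95% interval 0.983 to 1.56, adjusted p = 0.169), and leaving out any library kept the log2 fold change between 0.18 and 0.41 without a call. The 3 genes most like it over 8 libraries were Kcna5 (r = 0.98), Esam (0.975), an endothelial adhesion molecule, and Mylip (0.966). They were named after their values were seen. The summed endothelial markers, of which Esam is 1, were 345, 492, 446 and 304 FPKM in WT and 574, 553, 539 and 578 FPKM in Mrp4 KO. They shared the lowest WT and the highest Mrp4 KO library with Tsc22d3, but Mrp4 KO replicate 1, at nearly the highest sum, had the least Tsc22d3 of its group, and the highest WT library differed. Their part in the values of Tsc22d3 was not tested. Its paralogue Tsc22d1 rose from 85.7 ± 9.53 to 113 ± 9.89 FPKM (log2 fold change 0.36 ± 0.09, adjusted p = 0.0308), a call lost in 5 of the 8 fits that left out a library.

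Sgk1 (chr10:21882184-21999903) encodes a kinase that hormone and insulin switch on together and that acts on ion channels and FOXO factors. It had 39.8, 34.4, 40.5 and 28.03 FPKM in WT and 24.1, 37.7, 32.2 and 42.1 FPKM in Mrp4 KO. The Mrp4 KO libraries held both the lowest and the highest value. The fold was 0.917 (95% interval 0.697 to 1.21, adjusted p = 0.648), so the gene with the exact palindrome in a promoter window did not pass the test. Of 13 tested genes of the mineralocorticoid receptor and of SGK substrates, 1 was lower and none higher (7.69%, median log2 fold change 0.01). With library size alone 2 were higher and 0 lower, against 1950 higher and 680 lower of all 14257 tested genes. The lower gene was Pdpk1, the kinase that activates SGK, with a log2 fold change of -0.20 and an adjusted p of 0.0322, lost in 6 of the 8 fits that left out a library. Ndrg2, an SGK substrate, had 112 ± 33.5 and 171 ± 9.64 FPKM (adjusted p = 0.0556). Nedd4l, the ubiquitin ligase that SGK inhibits, had 4.34 ± 0.734 and 6.75 ± 1.62 FPKM (adjusted p = 0.0581). Neither passed.

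Mt1 and Mt2 encode small cysteine-rich proteins that bind zinc and copper, and they lie in line on chromosome 8, Mt2 at chr8:94172618-94173567 and Mt1 at chr8:94178883-94180327, with 5315 bases between them. Mt1 had 264, 204, 274 and 273 FPKM in WT and 188, 259, 213 and 159 FPKM in Mrp4 KO. WT replicate 2 and Mrp4 KO replicate 2 each lay nearer to the other group than to their own, and the groups overlapped. The fold was 0.775 (95% interval 0.613 to 0.98, adjusted p = 0.114); edgeR made the call without WT replicate 2 (log2 fold change -0.47, adjusted p = 0.0349) or without Mrp4 KO replicate 2 (-0.49, adjusted p = 0.0479).

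Mt2 had 110, 112, 152 and 130 FPKM in WT and 134, 211, 142 and 96.7 FPKM in Mrp4 KO. Mrp4 KO libraries were both the lowest and the highest. The fold was 1.11 (95% interval 0.808 to 1.54, adjusted p = 0.624), and its sign rested on Mrp4 KO replicate 2, without which the log2 fold change was -0.07. In GENCODE M21 the antisense gene Gm45774 covers 73.5% of the exonic bases of Mt2. The library kit is not stated to keep the strand, so reads of the 2 cannot be told apart. No stretch of over 20 bases was identical between the Mt1 and Mt2 transcripts of GENCODE, against reads of 100 bases.

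The balance of the 2 metallothioneins was compared as well. The ratio of Mt1 to Mt2 FPKM was 2.41, 1.82, 1.80 and 2.10 in WT replicates 1 to 4 and 1.40, 1.23, 1.49 and 1.65 in Mrp4 KO replicates 1, 2, 4 and 5. All 4 Mrp4 KO libraries lay below all 4 WT libraries. Among single tested genes, the FPKM ranges of the groups did not overlap for 23.5%, and the share of gene pairs whose ratios separate was not counted. Reads of the antisense Gm45774 may be part of the Mt2 values in this ratio. The mean ratio was 2.03 ± 0.284 in WT and 1.44 ± 0.175 in Mrp4 KO, a log2 difference of -0.49. The summed level of both genes overlapped between groups, at 317 to 426 FPKM in WT and 256 to 470 in Mrp4 KO. Over the 8 libraries the genes most like Mt1 were Vps28 (r = 0.956), Aprt (0.952) and Pcdhgb6 (0.948), whereas r between Mt1 and Mt2 was 0.52.

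**Figure D4:**
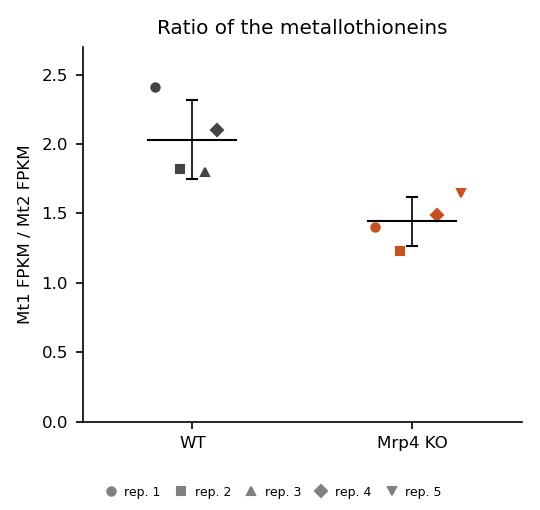
Ratio of Mt1 to Mt2 FPKM in each library, with the mean and SD of each group (n = 4) and the replicate by marker shape. The WT libraries lie between 1.80 and 2.41 and those labelled Mrp4 KO between 1.23 and 1.65. The Mt2 values may hold reads of the antisense Gm45774.

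Of 17 tested genes of zinc and metal handling besides Mt1 and Mt2, 1 was higher, none was lower and 16 did not pass (5.88%, median log2 fold change 0.04). The higher gene was Hmox1, the heme-degrading enzyme that also answers to metal and oxidants, with 27.2, 23.3, 25.9 and 25.4 FPKM in WT and 36.7, 34.0, 40.1 and 39.4 FPKM in Mrp4 KO. Its groups did not overlap, and its log2 fold change was 0.50 ± 0.08 (adjusted p = 0.00516). Hmox1 is also known to be abundant in macrophages, whose markers moved the same way (5 of 10 higher); their part in this value was not tested. Mtf1, the factor that binds the metal response element, had 3.45 ± 0.287 and 3.92 ± 0.23 FPKM (adjusted p = 0.285), and Slc30a1, the zinc exporter that it induces, had 4.96 ± 0.299 and 5.61 ± 0.619 (adjusted p = 0.419); both were named after their values were seen.

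Errfi1 (chr4:150853796-150868889), also called MIG6, is an early response gene whose product binds and shuts off receptors of the EGF receptor family. It had 104, 55.6, 75.9 and 46.1 FPKM in WT replicates 1, 2, 3 and 4, and 29.1, 45.5, 26.2 and 37.3 FPKM in Mrp4 KO replicates 1, 2, 4 and 5. Every Mrp4 KO library lay below every WT library, though WT replicate 4 and Mrp4 KO replicate 2 nearly met and their expected counts, 1973 and 1993, were in the reverse order. The mean was 70.5 ± 25.7 against 34.5 ± 8.7 FPKM, a fold of 0.468 (95% interval 0.312 to 0.702), and the log2 fold change was -1.09 ± 0.26 (edgeR adjusted p = 0.0234). The direction held in every fit that left out a library, with log2 fold changes of -1.25 to -0.84, but the call was lost without WT replicate 3 (adjusted p = 0.057) or without Mrp4 KO replicate 1, 4 or 5 (0.063, 0.0658 and 0.0537). Errfi1 was also variable within groups, with a pooled SD of 0.44 in log2 CPM, which 5.94% of genes exceeded.

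Summed mesothelial markers were 249, 169, 269 and 176 FPKM in WT and 64.2, 168, 172 and 113 FPKM in Mrp4 KO, so within WT they were high in the 2 libraries where Errfi1 was high, while within Mrp4 KO the highest sum, in replicate 4, went with the lowest Errfi1; 1 of 9 of these markers was lower (Wt1) and none was at 0. Their part in the fall of Errfi1 was not tested. Of 19 tested ErbB receptors, ligands and their signalling partners, 3 were lower and none higher (15.8%, median log2 fold change -0.02), though DESeq2 called 2 higher and 4 lower and limma on log2(FPKM + 1) 3 higher and 1 lower. Over all 14257 tested genes DESeq2 called 3314 and limma on log2(FPKM + 1) 2539. Nrg4, a ligand of ERBB4 secreted by adipocytes, had 46.1, 43.5, 40.1 and 37.9 FPKM in WT and 29.8, 29.3, 31.4 and 27.7 FPKM in Mrp4 KO. Its groups stood apart, and its log2 fold change was -0.57 ± 0.07 (adjusted p = 0.00152), which held whichever library was left out. Lrig1, another inhibitor of ErbB receptors, had a log2 fold change of -0.36 and an adjusted p of 0.026, lost without Mrp4 KO replicate 2, 4 or 5. The adaptor Shc1 had -0.27 and an adjusted p of 0.0303, lost in 6 of the 8 fits that left out a library. Egfr itself had 26.1 ± 6.13 and 20.8 ± 2.86 FPKM and did not pass (adjusted p = 0.101; named after its value was seen).

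Beyond the 8 induced genes above, 39 other known targets of the hormone were tested. Of these, 4 were higher, 4 were lower and 31 did not pass, a share of 20.5% beside 18.3% of all genes, with a median log2 fold change of -0.05. The lower targets were Gpx3, Agt, Lpin1 and Bcl6. Gpx3, the secreted glutathione peroxidase, had 852, 942, 1034 and 828 FPKM in WT and 366, 530, 403 and 281 FPKM in Mrp4 KO. Every Mrp4 KO library lay below every WT library, and its log2 fold change was -1.27 ± 0.17 (adjusted p = 0.00183). Agt, the precursor of angiotensin, fell from 287 ± 60.3 to 161 ± 36.9 FPKM (adjusted p = 0.0148). The calls of Lpin1 (adjusted p = 0.0436) and Bcl6 (0.0455) were each lost in 6 of the 8 fits that left out a library.

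The higher targets were Tat, Tdo2, Gadd45b and Anxa1. Tat (1.3 ± 0.908 to 9.89 ± 4.03 FPKM) and Tdo2 (1.89 ± 0.569 to 7.77 ± 2.55 FPKM) degrade tyrosine and tryptophan and are also 2 of the 14 liver transcripts, all of which were higher; the part of liver RNA in both was not tested. Gadd45b, a stress-induced regulator of kinase signalling, rose from 3.15 ± 0.6 to 5.67 ± 0.766 FPKM (adjusted p = 0.0138), and Anxa1, an anti-inflammatory lipid-binding protein, from 177 ± 44.7 to 278 ± 16.1 FPKM (adjusted p = 0.0259, lost in 5 of the 8 fits that left out a library). Targets used as readouts in many tissues did not pass: the clock gene Per1 had 33.2 ± 2.34 and 31.4 ± 5.89 FPKM (adjusted p = 0.441), Pdk4, which spares glucose, 40.5 ± 10.9 and 37.1 ± 15 (0.692), and Klf15 35.6 ± 5.27 and 29.2 ± 6.95 (0.197). These 3 were named after their values were seen.

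**Figure D5:**
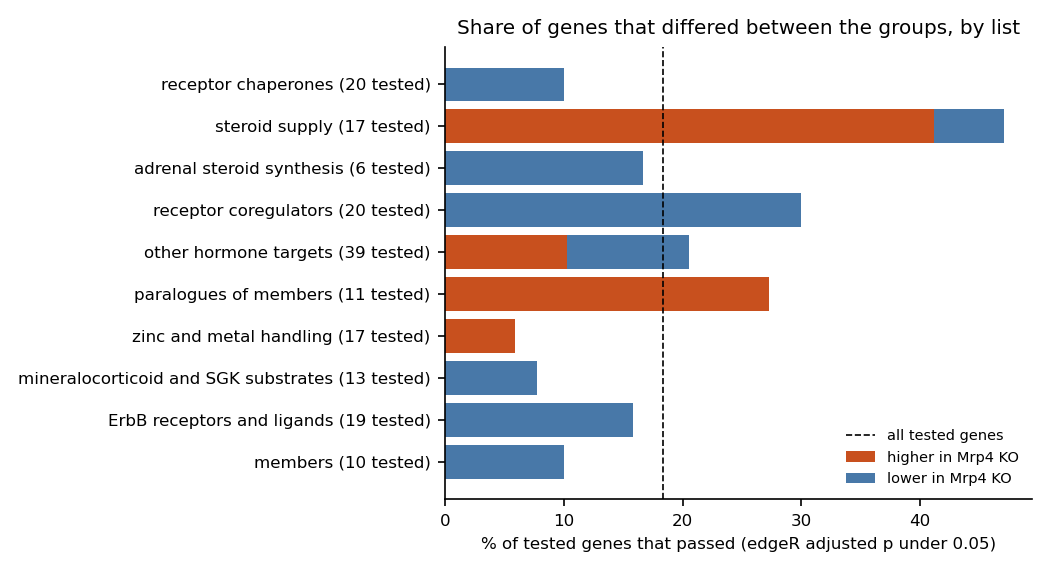
Percent of tested genes that passed edgeR's test (adjusted p under 0.05) in each list and among the 10 glucocorticoid genes, split by direction; the dashed line marks the 18.3% of all tested genes. The steroid supply list reaches 47.1%, mostly through genes higher in Mrp4 KO, and the 10 glucocorticoid genes lie at 10%. Several of those higher genes had few WT counts and passed the count filter through Mrp4 KO.

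Of 6 tested genes for making steroids or for the ACTH receptor, 1 was lower and none higher, a share of 16.7% beside 18.3% of all genes. The lower gene was of the receptor and not a steroid-making enzyme. Mrap, the partner of the ACTH receptor, fell from 244 ± 61.5 to 137 ± 21.8 FPKM (log2 fold change -0.89 ± 0.19, adjusted p = 0.0159) and held whichever library was left out. Cyp21a1, the adrenal steroid hydroxylase, was at 1.09 ± 0.618 and 2.12 ± 0.316 FPKM (adjusted p = 0.108), and Fdx1, the ferredoxin that feeds electrons to mitochondrial steroid enzymes, at 32.9 ± 3.36 and 32.6 ± 1.1 (adjusted p = 0.568). The summed adrenal cortex markers overlapped, at 14.7 to 27.3 FPKM in WT and 22.9 to 26.3 in Mrp4 KO. Most of this sum was Mc2r, the ACTH receptor itself. Beside Cyp21a1, the means in WT and Mrp4 KO were 1.13 and 1.08 FPKM for Star and 0.353 and 0.17 for Cyp11a1. The sum therefore mainly follows Mc2r and is not a measure of adrenal tissue. Cyp11b1, which makes the hormone in the adrenal cortex, was listed in no library. Among 11 tested paralogues of the 10 genes, 3 were higher and none lower (27.3%, median 0.22): Tsc22d1, Hsd11b2 and Klf13 (17.2 ± 0.72 to 21.1 ± 1.21 FPKM, adjusted p = 0.0449, lost in 7 of the 8 fits that left out a library). Hsd11b2 is also in the steroid supply list, where its few WT counts are given. Fkbp4, the co-chaperone that competes with Fkbp5 for the receptor complex, had 43.1 ± 7.09 and 33.2 ± 6.72 FPKM (adjusted p = 0.0775).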

How the data were processed

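Messenger RNA of 8 fat samples was read as paired 100-base reads. The submitters' processing notes name build mm9 and Bowtie2, and no source used here gives a quantifier. The expected count, FPKM and transcript length of each gene are the authors' own values, per the file headers; a gene not listed in a library was taken as 0. Rounded expected counts went into edgeR 4.0.16 under R 4.3.3 (filterByExpr, TMM, robust quasi-likelihood test on genotype, two-sided, Benjamini-Hochberg over 14257 genes, threshold 0.05); a fold is TMM-scaled and can differ from the ratio of FPKM means. Its interval and SE come from the F statistic. Alternatives were DESeq2 1.42.0, limma 3.58.1, other scalings and filters, and leaving out each library. The fits were tested on simulated data of 4 against 4 libraries with 200 changed genes. Genes without a change made up 6.35% of edgeR calls, 6.84% of limma-voom calls and 13.7% of DESeq2 calls. In that simulation DESeq2 calls thus held more unchanged genes than the threshold states. The counts were drawn once, with edgeR's own dispersions, and only 200 of 14157 genes were changed. These shares therefore cannot be carried over to the real calls. How many real calls by DESeq2 alone are of unchanged genes was not tested. Precision rests on 4 libraries a group. Reads carried no molecular identifiers.

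The genes, lists and rules were chosen with earlier results of these data known. Named were the 10 genes, Abcc4, up to 3 genes of lowest p in each list that averaged 1 FPKM or more in WT or Mrp4 KO (Ppargc1a, Akr1c6 and Serpina6 only in the group where they are high), the called genes of some lists, and genes said to be chosen after their values were seen. Of the list genes, Adgre1 was found as Emr1 by gene number. Promoters came from RefSeq; none was printed for Nr3c1 or Zbtb16.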

Additional observations from a re-analysis of the deposited data

Results flagged for a closer look

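Of 24 groups of 4 libraries (the 10 genes, Abcc4 and the metallothionein ratio, each in WT and Mrp4 KO), 2 had a library far from the other 3, by a gap above Dixon's critical value. Tsc22d3 was 175 FPKM in Mrp4 KO replicate 5, a gap of 0.861 of the range. Mt1 was 204 FPKM in WT replicate 2, a gap of 0.859 of the range. That library also had the highest sum of epididymis and testis transcripts, 13.5 FPKM, and the part of this in its Mt1 value was not tested. Chance flags about 1 group in 20.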

How the results depend on the processing

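Abcc4, Mt2 and Sgk1 changed direction under some settings, all with small values: Abcc4 had a log2 fold change of 0.02 with library size alone, 0.03 and 0.04 with limma on log2(FPKM + 1) and log2(FPKM + 0.1), and 0.01 with the replicate block; leaving out a library moved Sgk1 from -0.25 to 0.02 (without Mrp4 KO replicate 1) and Mt2 from -0.07 (without Mrp4 KO replicate 2) to 0.30. The number of glucocorticoid genes called was 2 with DESeq2 and with limma-voom (Hsd11b1 added), 0 at an adjusted p under 0.01 and 2 under 0.1, and 0 to 3 when a library was left out. All genes called numbered 551 at 0.01, 4178 at 0.1 and 1172 (without WT replicate 4) to 3683 (without WT replicate 2). Of 156 tested pathway genes 32 were called at 0.05, beside 2606 (18.3%) of all 14257 tested genes. Pathway genes called numbered 12 at 0.01, 54 at 0.1 and 19 to 48 when a library was left out. Of all genes called, 55.9% were higher; this was 74.1% with library size alone and 73.6% and 73.3% with the FPKM fits. The cause was not tested.

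Replicate numbers are shared by 3 pairs of libraries, but the numbers share no stated origin, the correlation of same-numbered libraries was -0.128 to 0.011, and 0 of the 3 WT libraries correlated best with their own number. With the replicate block 141 genes were called (78.0% higher), 4 pathway genes and 1 glucocorticoid gene: Zbtb16 passed (-0.69, adjusted p = 0.0496) and Errfi1 did not (-1.06, adjusted p = 0.138).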
